A study of Arabidopsis thaliana with 33 samples.

Results

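The genes described here are those whose transcripts were lower in elevated than in ambient CO2 at both nitrogen supplies and at both times of day. A probe set, the group of array probes that reports 1 transcript, was a member when its mean log2 value in elevated CO2 was at least 0.4 below its mean in ambient CO2 in each of the 4 combinations of nitrogen supply and time. The members were thus chosen by their CO2 differences in these same arrays. Of 12772 probe sets, 74 met this rule. STOMAGEN, a secreted signal that promotes stomata, and EXPA8, an expansin of the cell wall, were among them and were left out by name, which left 72 members, or 0.564% of the probe sets. The annotation names 33 of the members, and the other 39 are given by count or by probe set. Ribosomal protein genes were also to be left out, and none was found among the named probe sets; an unnamed member could be of that kind or another gene that was to be left out.

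The leaves came from Arabidopsis thaliana Col-0 plants grown in chambers and taken 35 days after germination, when the youngest leaf that had reached full size was cut. The 8 groups had 3 elevated and 4 ambient CO2 arrays at ample nitrogen and midday, 5 of each at ample nitrogen and midnight, 4 of each at limiting nitrogen and midday, and 4 of each at limiting nitrogen and midnight, 33 arrays in all. Elevated CO2 was 750 ppm and ambient CO2 370 ppm. Limiting nitrogen was 0.25 mM NH4NO3 and ample nitrogen 6 mM NH4NO3, given in the nutrient solution. The labels number the arrays of a group as replicates without naming separate plants, pools or chambers, so the spread between arrays may be partly technical. Whole leaves were used, and fewer cells of a type cannot be told apart from less RNA per cell. Expression is given on a log2 scale on which every array has a median of 0, and the number of arrays limits the precision.

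More CO2 lets a leaf fix more carbon and form more sugar, and plants grown in it commonly lower the expression of part of their photosynthetic machinery. Nitrogen supply bears on this response because much of a leaf's nitrogen sits in photosynthetic proteins. Many leaf transcripts also cycle over the day, under the control of light, sugar and the circadian clock.

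Among the 33 named members, 8 were grouped as cell surface or secreted proteins, 3 as methyltransferases and 5 as other enzymes of small molecules. A further 8 were grouped as proteins of the chloroplast or of organelle RNA and 4 as regulators or adaptors, and 5 have no role given. The first grouping is loose, since it holds AT5G56100, of the oleosin family, which is not a family of the cell surface. The largest mean fall in elevated CO2 was that of AT1G60590, a pectin lyase-like protein, which was 3.02-fold lower. Time of day was called by limma for 43 of the 72 members (59.7%), where it was called for 64.5% of all probe sets. At midday 36 members were higher (50%, against 33.4% of all) and 7 lower (9.72%, against 31.1% of all). Nitrogen supply was called for 1 member, the methyltransferase gene AT1G33170, which was lower under limiting nitrogen, where 0.83% of all probe sets were.

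The CO2 differences chose the members and are given below as a description, with no test. The members' median difference, elevated minus ambient, was -0.56 at ample nitrogen and midday, -0.61 at ample nitrogen and midnight, -0.54 at limiting nitrogen and midday and -0.73 at limiting nitrogen and midnight. The same median over all 12772 probe sets lay between -0.05 and -0.02 in the 4 conditions. The single lowest value was -2.12, for AT1G60590 at ample nitrogen and midnight. The deepest fall of a member lay at limiting nitrogen and midnight for 38 members and at ample nitrogen and midnight for 24. It lay at midday for the remaining members, with 6 at limiting and 4 at ample nitrogen. The members' median within-group SD was 0.30 to 0.58 in the midnight groups, against 0.17 to 0.34 in the midday groups. The part of this spread in where the deepest fall lay was not tested, and the share over all probe sets was not counted. In the opposite direction, 263 probe sets were at least 0.4 higher in elevated CO2 in all 4 conditions.

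**Figure D1:**
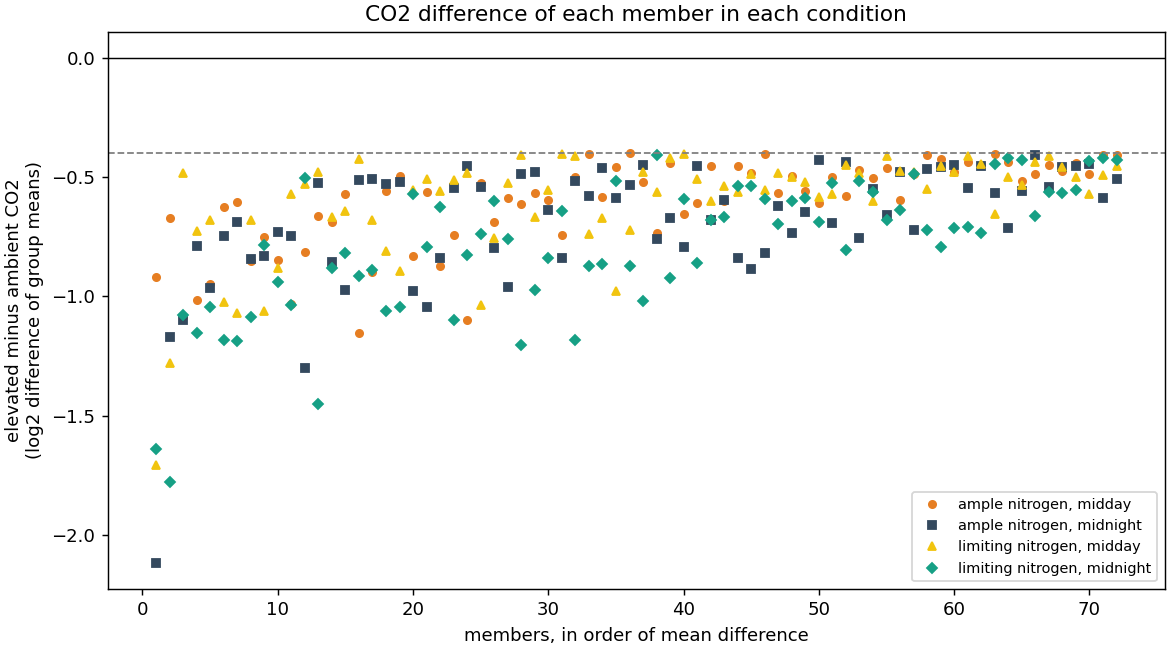
The elevated minus ambient CO2 difference of group means (log2, vertical axis) of each of the 72 members, placed in order of its mean over the 4 conditions (horizontal axis), with 1 symbol per condition and a dashed line at the -0.4 of the rule. Most points lie between -0.4 and -1.2, and the midnight symbols reach the lowest values, down to -2.12.

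At the edge of the rule, CYTC6A entered with a smallest fall of -0.401, AT2G32640 with -0.403 and AT4G12830 with -0.406. AT1G73090 missed it at -0.39978, and AT5G45950 and AT1G67750 missed it at -0.398 each. The line therefore separated values far closer together than the spread between arrays. With -0.3 as the limit 240 probe sets met the rule, and with -0.5 there were 27.

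The arrays of the 2 CO2 levels often overlapped within a condition. Every elevated array lay below every ambient array for 42 members at ample nitrogen and midday (58.3%), where 7.17% of all probe sets did so. At limiting nitrogen this held for 32 members at midday (44.4%, against 6.58% of all probe sets) and for 26 at midnight (36.1%, against 6.01%). At ample nitrogen and midnight, the condition with 5 arrays on each side, it held for 6 members (8.33%, against 1.21%). The arrays stood apart in 3 or 4 conditions for 12 members (16.7%, where 0.399% of all probe sets did so). They stood apart in no condition for 9 of the 72 members, and for 10487 of the 12772 probe sets. The rule used these values, so nothing is read from the shares.

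**Figure D2:**
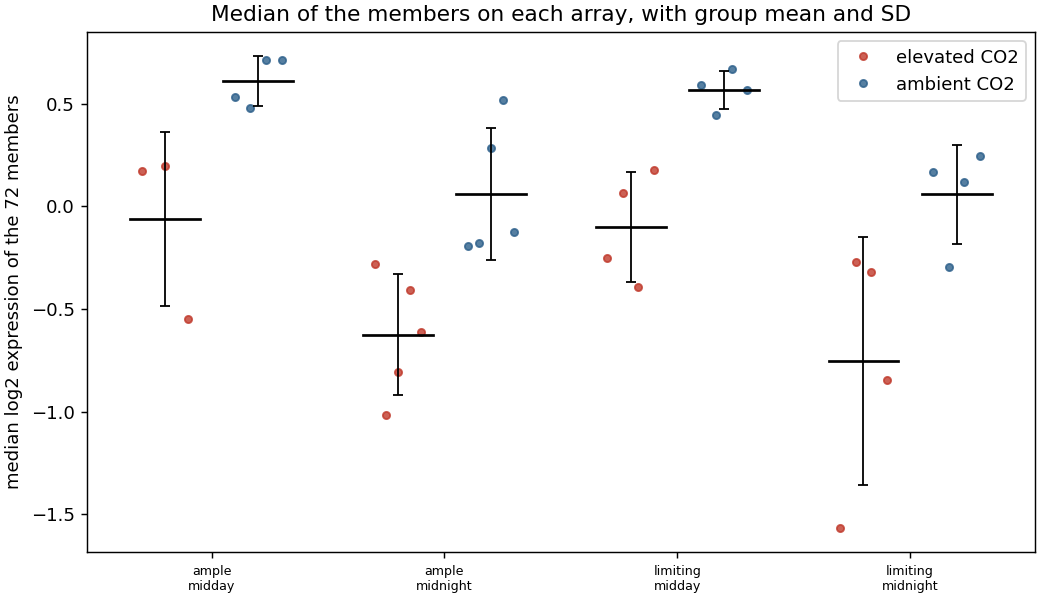
The median log2 value of the 72 members on each of the 33 arrays (points), with the mean and SD of each group (bars), by nitrogen supply and time, elevated CO2 left of ambient CO2. Each elevated CO2 group has its mean below that of its ambient pair, and the lowest elevated arrays lie at -0.55, -1.01, -0.40 and -1.57.

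The members' median differed between arrays of the same group. At ample nitrogen and midday it was 0.17, 0.20 and -0.55 on the elevated CO2 arrays, against 0.53, 0.48, 0.71 and 0.71 on the ambient CO2 arrays. At midnight with ample nitrogen it was -0.28, -1.01, -0.81, -0.41 and -0.61 on the elevated CO2 arrays, against -0.20, -0.18, 0.28, 0.52 and -0.13 on the ambient CO2 arrays. All elevated arrays lay below all ambient ones in both cases, though at ample nitrogen and midnight the nearest arrays were close, at -0.28 in elevated and -0.20 in ambient CO2. With limiting nitrogen the midday medians were -0.25, 0.07, -0.40 and 0.17 on the elevated CO2 arrays, against 0.59, 0.45, 0.67 and 0.56 on the ambient CO2 arrays. The midnight medians with limiting nitrogen were -1.57, -0.27, -0.32 and -0.85 on the elevated CO2 arrays, against 0.17, -0.29, 0.12 and 0.24 on the ambient CO2 arrays. There 1 ambient array, at -0.29, lay between elevated arrays, and 1 elevated array, at -1.57, lay far below the rest. The spread of single members was wide too: their within-group SD pooled over the 8 groups had a median of 0.424 (0.221 to 0.989), against 0.279 over all probe sets.

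Some of the depth of the differences rested on 1 array per condition. Without replicate 1 of the elevated arrays at limiting nitrogen and midnight, the members' median difference there became -0.50 in place of -0.73, and 49 members still met the -0.4 limit. Without replicate 3 of the elevated arrays at ample nitrogen and midday the median there became -0.40, 36 members still met the limit and 2 were no longer below 0. Without replicate 3 of the elevated arrays at limiting nitrogen and midday it became -0.45 with 45 members, and without replicate 4 of the ambient arrays at ample nitrogen and midnight -0.56 with 55 members. This last array had a mean log2 ratio of 3' to 5' control probes, a sign of RNA or labelling quality, of 4.41, where the other 32 arrays lay between 1.46 and 2.35. It also had the lowest array weight, limma's estimate of an array's precision, at 0.125. The next lowest weight, 0.286, belonged to replicate 1 of the elevated arrays at limiting nitrogen and midnight. The part of these array properties in the result was not tested beyond leaving the arrays out. With both of these arrays left out, 42 probe sets met the rule, 36 of them members. Members that met the rule whichever single array was left out were AT3G13000, AT5G01015, AT2G29290, AT1G33170, AT1G74070 and the unnamed 253579_at and 259331_at. In that order, their mean levels stood at percentiles 10.4, 44.1, 84.5, 11.6, 59.6, 9.98 and 13.4 of all probe sets. Of all members, 24 were among the 30% of probe sets of lowest mean level, and no detection call is given.

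**Figure D3:**
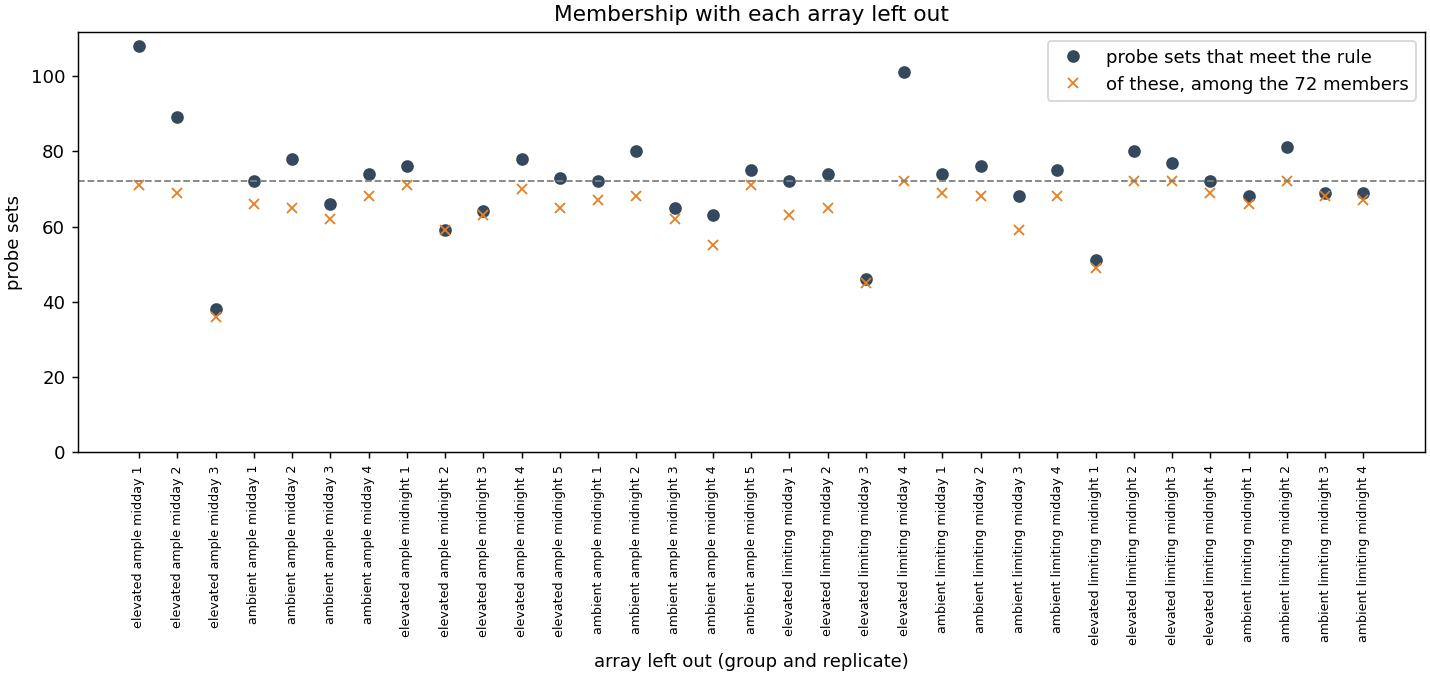
The number of probe sets that met the rule with each array left out in turn (dots) and how many of them are among the 72 members (crosses), with a dashed line at 72. The dots run between 38, without replicate 3 of the elevated arrays at ample nitrogen and midday, and 108, without replicate 1 of the same group.

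The control probe sets not named for Arabidopsis transcripts also differed between the CO2 levels. Of these 37 probe sets, 34 were lower in elevated CO2, with a median difference of -0.23 (-1.03 to 0.08). The labels do not say which control transcripts were added to the samples, so the 37 are not taken as separate measurements. When each array was centred on these controls in place of its own median, the median CO2 difference of all probe sets shifted by 0.08 at ample nitrogen and midday, 0.28 at ample nitrogen and midnight, -0.21 at limiting nitrogen and midday and 0.32 at limiting nitrogen and midnight. On that scale 16 probe sets met the rule, 15 of them members. Centring moves every probe set by the same amount in a condition, and each upward shift was smaller than the fall the rule required. All 72 members were therefore bound to stay below 0 in all 4 conditions on that scale, and nothing is read from this. Of all 12772 probe sets, 968 were below 0 in all 4 on that scale, where 3193 were on the deposited scale. The size of each CO2 difference below is therefore relative to the array median. The part of the controls' shift in the result was not tested further.

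Of the named members, 8 were grouped as cell surface or secreted proteins by the known roles of their families. This is loose for AT5G56100, since its family, the oleosins, is not one of the cell surface. The largest fall of all members belonged to AT1G60590, a pectin lyase-like protein of a family that acts on cell wall pectin. Its mean difference over the 4 conditions was -1.60, a level 3.02-fold lower in elevated CO2. AT1G60590 at ample nitrogen and midday had log2 values of 0.41, 0.23 and -1.64 on the elevated CO2 arrays, against 0.16, 0.34, 0.89 and 0.95 on the ambient CO2 arrays. AT1G60590 at ample nitrogen and midnight had 0.62, -2.83, -1.0, -0.24 and 0.17 on the elevated CO2 arrays, against 0.66, 0.21, 2.56, 3.04 and 0.84 on the ambient CO2 arrays. At midday the lowest elevated array carried most of the difference, and at midnight 1 elevated array lay within the ambient range. AT1G60590 at limiting nitrogen and midday had -1.96, -0.63, -2.15 and 0.19 on the elevated CO2 arrays, against 0.57, -0.05, 0.66 and 1.11 on the ambient CO2 arrays. AT1G60590 at limiting nitrogen and midnight had -1.64, -0.14, 0.57 and -1.08 on the elevated CO2 arrays, against 1.63, 0.83, 0.77 and 1.02 on the ambient CO2 arrays. With limiting nitrogen 1 elevated array reached the ambient values at midday, and at midnight no elevated array did. Without replicate 3 of the elevated arrays, the difference at ample nitrogen and midday was -0.27 in place of -0.92.

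AT2G10940, of the lipid-transfer and protease-inhibitor family of small secreted proteins, had a mean difference of -0.89, or 1.86-fold lower. In AT2G10940, ample nitrogen and midday gave 2.58, 2.20 and 1.23 on the elevated CO2 arrays, against 2.42, 2.44, 2.89 and 2.78 on the ambient CO2 arrays. In AT2G10940, ample nitrogen and midnight gave 2.52, 2.11, 2.52, 2.86 and 3.23 on the elevated CO2 arrays, against 3.16, 3.72, 3.48, 3.46 and 3.17 on the ambient CO2 arrays. At ample nitrogen 1 elevated array lay among the ambient arrays at each time. In AT2G10940, limiting nitrogen and midday gave 1.47, 1.88, 2.08 and 2.54 on the elevated CO2 arrays, against 2.73, 2.73, 3.96 and 2.65 on the ambient CO2 arrays. In AT2G10940, limiting nitrogen and midnight gave 1.02, 2.34, 1.44 and 1.96 on the elevated CO2 arrays, against 1.83, 3.74, 3.04 and 2.86 on the ambient CO2 arrays. The arrays were apart at midday, where 1 ambient array stood far above the others, and at midnight 1 ambient array fell among the elevated ones. AT3G05730, a defensin-like secreted peptide, had a mean difference of -0.85. AT3G05730 at ample nitrogen and midday had log2 values of 1.85, 2.02 and 0.52 on the elevated CO2 arrays, against 2.57, 1.83, 2.43 and 2.41 on the ambient CO2 arrays. AT3G05730 at ample nitrogen and midnight had 1.1, 1.12, 1.44, 1.53 and 2.08 on the elevated CO2 arrays, against 2.79, 1.29, 2.55, 2.86 and 1.44 on the ambient CO2 arrays. Its CO2 levels overlapped at both times, since 1 ambient array at midday and 2 at midnight were low. AT3G05730 at limiting nitrogen and midday had 2.13, 2.24, 1.85 and 2.03 on the elevated CO2 arrays, against 2.96, 2.45, 3.36 and 3.01 on the ambient CO2 arrays. AT3G05730 at limiting nitrogen and midnight had 1.38, 2.16, 1.48 and 0.71 on the elevated CO2 arrays, against 2.64, 1.23, 2.50 and 3.12 on the ambient CO2 arrays. All 4 elevated arrays lay below the ambient ones at midday, and 1 low ambient array broke this at midnight.

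AT3G17640, a leucine-rich repeat protein, had a mean difference of -0.75. In AT3G17640, ample nitrogen and midday gave -0.56, -0.96 and -1.31 on the elevated CO2 arrays, against -0.56, -0.15, -0.54 and -0.24 on the ambient CO2 arrays. In AT3G17640, ample nitrogen and midnight gave -2.80, -3.0, -2.67, -2.18 and -3.0 on the elevated CO2 arrays, against -2.08, -2.35, -1.75, -1.19 and -1.42 on the ambient CO2 arrays. At midday the groups were apart by less than 0.01, and at midnight 1 elevated array lay between ambient arrays. In AT3G17640, limiting nitrogen and midday gave -1.16, -0.83, -2.01 and -0.62 on the elevated CO2 arrays, against -0.38, -0.80, -0.53 and -0.34 on the ambient CO2 arrays. In AT3G17640, limiting nitrogen and midnight gave -3.17, -1.98, -1.73 and -2.99 on the elevated CO2 arrays, against -1.73, -1.58, -1.59 and -1.68 on the ambient CO2 arrays. The groups overlapped at both times, and at midnight the 4 ambient arrays lay close together. AT4G12980, an auxin-responsive membrane protein, is the next gene along the chromosome from STOMAGEN in the TAIR10.1 annotation, and had a mean difference of -0.72. AT4G12980 at ample nitrogen and midday had log2 values of 1.97, 2.1 and 1.90 on the elevated CO2 arrays, against 2.71, 2.89, 2.65 and 2.67 on the ambient CO2 arrays. AT4G12980 at ample nitrogen and midnight had -1.02, -2.75, -1.44, -1.05 and -1.54 on the elevated CO2 arrays, against -0.71, -1.68, -0.64, -1.04 and -1.01 on the ambient CO2 arrays. Its groups did not overlap at midday, while at midnight 2 ambient arrays fell among the elevated ones. AT4G12980 at limiting nitrogen and midday had 2.33, 2.25, 1.60 and 2.24 on the elevated CO2 arrays, against 2.71, 2.56, 2.57 and 2.62 on the ambient CO2 arrays. AT4G12980 at limiting nitrogen and midnight had -2.01, -1.18, -1.27 and -2.08 on the elevated CO2 arrays, against -0.31, -0.84, -0.75 and -0.25 on the ambient CO2 arrays. No overlap was seen at either time. The other members of this group were AT4G18970, a GDSL lipase, with a mean difference of -0.74, AT5G56100, a glycine-rich protein of the oleosin family, with -0.71, and AT3G43960, a cysteine protease, with -0.62.

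**Figure D4:**
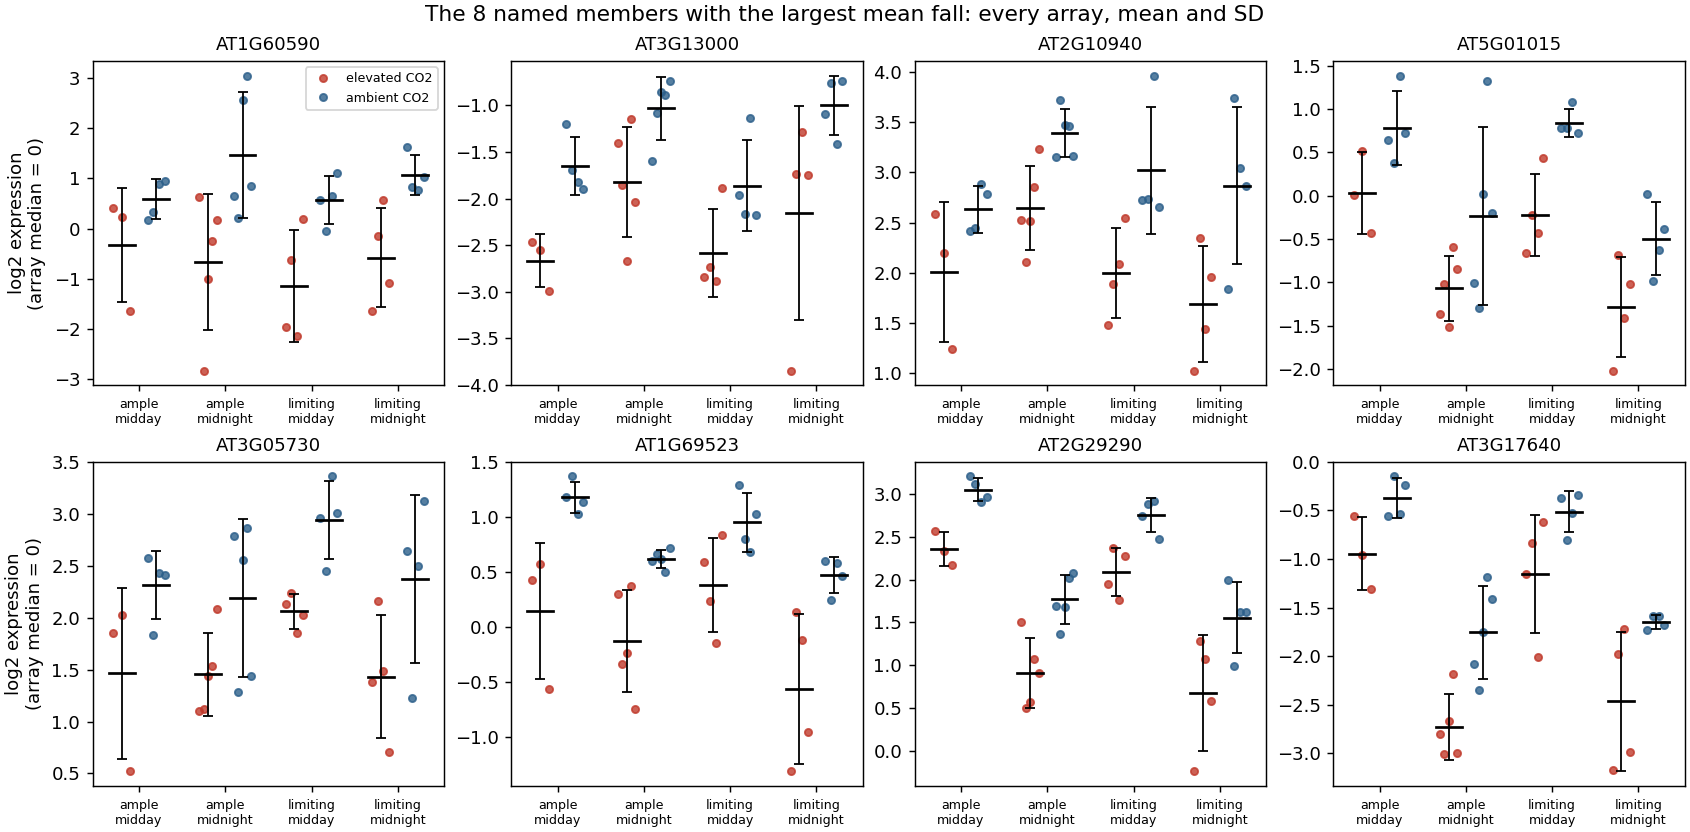
Log2 values of the 8 named members with the largest mean fall on every array (points), with group mean and SD (bars), for elevated CO2 (left of each pair) and ambient CO2, by nitrogen supply and time; each panel has its own vertical axis. Group means are lower in elevated CO2 in every pair, while single arrays overlap in most pairs.

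Methyltransferases that use S-adenosylmethionine as methyl donor were 3 of the named members. AT1G69523 had a mean difference of -0.85, or 1.80-fold lower. In AT1G69523, ample nitrogen and midday gave 0.43, 0.57 and -0.56 on the elevated CO2 arrays, against 1.19, 1.37, 1.03 and 1.13 on the ambient CO2 arrays. In AT1G69523, ample nitrogen and midnight gave 0.31, -0.33, -0.23, 0.38 and -0.74 on the elevated CO2 arrays, against 0.61, 0.67, 0.62, 0.50 and 0.72 on the ambient CO2 arrays. The groups were apart at both times, with the 5 ambient arrays at midnight in a narrow band. In AT1G69523, limiting nitrogen and midday gave 0.60, 0.24, -0.14 and 0.83 on the elevated CO2 arrays, against 1.29, 0.81, 0.68 and 1.03 on the ambient CO2 arrays. In AT1G69523, limiting nitrogen and midnight gave -1.31, 0.14, -0.12 and -0.96 on the elevated CO2 arrays, against 0.60, 0.25, 0.58 and 0.47 on the ambient CO2 arrays. With limiting nitrogen the midday groups overlapped and the midnight groups did not. Its neighbour on chromosome 1, AT1G69526, a methyltransferase of the same family, had a mean difference of -0.75, with -1.15 at ample nitrogen and midday, -0.51 at ample nitrogen and midnight, -0.42 at limiting nitrogen and midday, and -0.92 at limiting nitrogen and midnight. Neighbouring genes of 1 family can share probes, and probe sequences were not used here. The third, AT1G33170, is described with the nitrogen effect.

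Other enzymes that act on small molecules made up 5 named members. AT2G29290 and AT2G29300 are adjacent genes for short-chain dehydrogenases of the tropinone reductase type. AT2G29290 had a mean difference of -0.77. AT2G29290 at ample nitrogen and midday had log2 values of 2.57, 2.34 and 2.17 on the elevated CO2 arrays, against 3.20, 3.11, 2.91 and 2.97 on the ambient CO2 arrays. AT2G29290 at ample nitrogen and midnight had 1.51, 0.50, 0.57, 1.07 and 0.91 on the elevated CO2 arrays, against 1.69, 1.37, 1.68, 2.02 and 2.08 on the ambient CO2 arrays. The midday groups were apart, and at midnight the highest elevated array lay above 1 ambient array. AT2G29290 at limiting nitrogen and midday had 1.95, 2.36, 1.76 and 2.28 on the elevated CO2 arrays, against 2.74, 2.88, 2.91 and 2.48 on the ambient CO2 arrays. AT2G29290 at limiting nitrogen and midnight had -0.24, 1.29, 1.07 and 0.58 on the elevated CO2 arrays, against 1.99, 0.99, 1.62 and 1.62 on the ambient CO2 arrays. Midday groups were apart again, and at midnight 1 elevated array, at -0.24, was far below the other 7 arrays. AT2G29300 had a mean difference of -0.60, with -0.60 at ample nitrogen and midday, -0.60 at ample nitrogen and midnight, -0.54 at limiting nitrogen and midday, and -0.67 at limiting nitrogen and midnight. AT4G38690, a phosphodiesterase related to phospholipase C, had a mean difference of -0.61. In AT4G38690, ample nitrogen and midday gave -0.37, -0.44 and -0.53 on the elevated CO2 arrays, against 0.02, -0.10, -0.01 and 0.07 on the ambient CO2 arrays. In AT4G38690, ample nitrogen and midnight gave -0.47, -0.28, -1.41, -0.19 and -0.52 on the elevated CO2 arrays, against -0.23, 0.40, 0.45, -0.40 and 0.26 on the ambient CO2 arrays. The groups were apart at midday, and at midnight 2 ambient arrays lay among the elevated ones. In AT4G38690, limiting nitrogen and midday gave -0.13, -0.37, -0.32 and -0.04 on the elevated CO2 arrays, against 0.25, 0.36, 0.05 and 0.16 on the ambient CO2 arrays. In AT4G38690, limiting nitrogen and midnight gave -1.81, -0.29, -0.39 and -0.63 on the elevated CO2 arrays, against -0.08, 0.38, -0.12 and 0.37 on the ambient CO2 arrays. No overlap was seen at either time, by a margin of 0.09 at midday. UGT76E11, a glucosyltransferase that attaches sugar to small molecules such as flavonoids, had a mean difference of -0.56, and AT4G12830, an alpha/beta hydrolase, -0.66.

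Proteins of the chloroplast and proteins that process the RNA of organelles made up 8 named members. AT5G38520 is an alpha/beta hydrolase known as a chlorophyll dephytylase, which takes the phytol tail from chlorophyll, and had a mean difference of -0.48. AT5G38520 at ample nitrogen and midday had log2 values of 2.86, 3.03 and 2.54 on the elevated CO2 arrays, against 3.21, 3.23, 3.24 and 3.18 on the ambient CO2 arrays. AT5G38520 at ample nitrogen and midnight had 2.27, 1.69, 1.96, 2.33 and 1.78 on the elevated CO2 arrays, against 2.34, 2.37, 2.63, 3.27 and 2.35 on the ambient CO2 arrays. The groups were apart at both times, by 0.01 at midnight. AT5G38520 at limiting nitrogen and midday had 2.57, 2.75, 2.17 and 2.80 on the elevated CO2 arrays, against 3.17, 2.96, 3.02 and 3.11 on the ambient CO2 arrays. AT5G38520 at limiting nitrogen and midnight had 1.34, 2.29, 2.21 and 1.90 on the elevated CO2 arrays, against 2.68, 2.07, 2.31 and 2.37 on the ambient CO2 arrays. They were apart at midday and overlapped at midnight, where the ambient array of replicate 2 was low. CYTC6A, a c-type cytochrome of the thylakoid lumen, had -0.40 at ample nitrogen and midday, -0.53 at ample nitrogen and midnight, -0.72 at limiting nitrogen and midday, and -0.87 at limiting nitrogen and midnight. AT4G27700, a rhodanese-like protein, had a mean difference of -0.48, AT2G32640, of the lycopene cyclase family, -0.59, and AT3G56160, of the bile acid:sodium symporter family, -0.57. AT1G74070, a cyclophilin of the protein-folding isomerases, had -0.66. The pentatricopeptide repeat proteins AT5G66520 and AT3G22150, of a family that binds and edits organelle RNA, had -0.71 and -0.58. The groups of these 8 genes and of the other classes were drawn up after values were known, and no class was tested.

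Regulators and adaptors were 4 named members. AT3G23880, an F-box protein of the type that marks proteins for degradation, had a mean difference of -0.73, AT1G22330, an RNA-binding protein, -0.65, AT4G28080, a tetratricopeptide repeat protein, -0.59, and iqd21, a calmodulin-binding IQ-domain protein, -0.54. No role is given for 5 named members: AT3G13000, AT4G37080, AT5G25590, AT5G01015 and AT5G27290. AT3G13000 had the second largest fall of the named members, -0.92. In AT3G13000, ample nitrogen and midday gave -2.46, -2.55 and -2.99 on the elevated CO2 arrays, against -1.20, -1.69, -1.82 and -1.90 on the ambient CO2 arrays. In AT3G13000, ample nitrogen and midnight gave -1.41, -1.85, -2.67, -1.14 and -2.04 on the elevated CO2 arrays, against -1.59, -1.08, -0.85, -0.89 and -0.74 on the ambient CO2 arrays. The groups were well apart at midday and overlapped at midnight. In AT3G13000, limiting nitrogen and midday gave -2.84, -2.73, -2.89 and -1.88 on the elevated CO2 arrays, against -1.96, -2.17, -1.14 and -2.18 on the ambient CO2 arrays. In AT3G13000, limiting nitrogen and midnight gave -3.85, -1.74, -1.28 and -1.75 on the elevated CO2 arrays, against -1.09, -0.76, -1.41 and -0.74 on the ambient CO2 arrays. With limiting nitrogen 1 elevated array at each time reached the ambient values, and the elevated array at -3.85 was far below the others. AT5G01015 had a mean difference of -0.86. AT5G01015 at ample nitrogen and midday had log2 values of 0.01, 0.51 and -0.43 on the elevated CO2 arrays, against 0.65, 0.38, 1.38 and 0.72 on the ambient CO2 arrays. AT5G01015 at ample nitrogen and midnight had -1.36, -1.01, -1.51, -0.59 and -0.85 on the elevated CO2 arrays, against -1.01, -1.29, 0.02, 1.32 and -0.20 on the ambient CO2 arrays. At both times ambient arrays ran down into the elevated range, and at midnight they spread over 2.61. AT5G01015 at limiting nitrogen and midday had -0.66, -0.22, -0.43 and 0.44 on the elevated CO2 arrays, against 0.78, 0.78, 1.08 and 0.73 on the ambient CO2 arrays. AT5G01015 at limiting nitrogen and midnight had -2.02, -0.68, -1.41 and -1.02 on the elevated CO2 arrays, against 0.02, -0.98, -0.63 and -0.39 on the ambient CO2 arrays. The groups were apart at midday, and 1 ambient array lay among the elevated ones at midnight. AT5G27290 had the smaller mean difference of -0.50 with little spread. In AT5G27290, ample nitrogen and midday gave 1.32, 1.47 and 1.02 on the elevated CO2 arrays, against 1.92, 1.76, 1.75 and 1.59 on the ambient CO2 arrays. In AT5G27290, ample nitrogen and midnight gave 1.48, 1.05, 1.27, 1.45 and 1.02 on the elevated CO2 arrays, against 1.66, 1.32, 1.86, 1.60 and 1.88 on the ambient CO2 arrays. Midday groups were apart by 0.12, and midnight groups overlapped. In AT5G27290, limiting nitrogen and midday gave 1.16, 1.33, 0.99 and 1.54 on the elevated CO2 arrays, against 1.71, 1.55, 1.72 and 1.80 on the ambient CO2 arrays. In AT5G27290, limiting nitrogen and midnight gave 0.54, 1.29, 1.17 and 1.01 on the elevated CO2 arrays, against 1.7, 1.37, 1.72 and 1.88 on the ambient CO2 arrays. Both times gave separate groups, by margins of 0.01 and 0.07. AT5G25590 had a mean difference of -0.74 and AT4G37080 of -0.68.

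The 39 unnamed members had mean differences between -1.22 and -0.45, with a median of -0.60. Probe set 253579_at had the largest of these. 253579_at at ample nitrogen and midday had log2 values of -1.91, -2.07 and -2.75 on the elevated CO2 arrays, against -1.58, -1.7, -1.46 and -1.54 on the ambient CO2 arrays. 253579_at at ample nitrogen and midnight had -1.06, -2.93, -3.04, -1.63 and -2.38 on the elevated CO2 arrays, against -1.42, -2.71, -0.17, 0.18 and -1.05 on the ambient CO2 arrays. Midday groups were apart, and at midnight the elevated arrays spread over 1.98 and the ambient ones over 2.89. 253579_at at limiting nitrogen and midday had -3.40, -2.25, -3.10 and -1.93 on the elevated CO2 arrays, against -1.86, -1.90, -0.49 and -1.30 on the ambient CO2 arrays. 253579_at at limiting nitrogen and midnight had -3.97, -1.74, -2.42 and -2.76 on the elevated CO2 arrays, against -0.19, -0.94, -1.51 and -1.14 on the ambient CO2 arrays. Both groups were apart at limiting nitrogen, where the elevated arrays reached -3.97. Probe set 253971_at had a mean difference of -0.94. In 253971_at, ample nitrogen and midday gave 3.19, 2.91 and 3.08 on the elevated CO2 arrays, against 4.37, 4.36, 3.46 and 4.41 on the ambient CO2 arrays. In 253971_at, ample nitrogen and midnight gave 3.75, 1.91, 3.11, 3.51 and 1.96 on the elevated CO2 arrays, against 3.74, 4.05, 4.56, 3.65 and 3.74 on the ambient CO2 arrays. The midday groups were apart, with 1 ambient array well below the others, and the midnight groups overlapped. In 253971_at, limiting nitrogen and midday gave 3.06, 3.60, 2.68 and 3.57 on the elevated CO2 arrays, against 3.80, 4.06, 3.77 and 3.21 on the ambient CO2 arrays. In 253971_at, limiting nitrogen and midnight gave 2.19, 3.62, 3.47 and 3.24 on the elevated CO2 arrays, against 4.62, 3.86, 3.94 and 4.40 on the ambient CO2 arrays. Here the midday groups overlapped and the midnight groups did not. Probe set 252607_at had one of -0.91, with overlap between the CO2 levels in every condition. Probe set 251669_at, singled out after its values were seen, was the member whose arrays were apart in all 4 conditions, with -0.46 at ample nitrogen and midday, -0.68 at ample nitrogen and midnight, -0.60 at limiting nitrogen and midday, and -0.68 at limiting nitrogen and midnight. Over all 12772 probe sets, 5 were apart in all 4 conditions.

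The CO2 differences of the members can be set beside each other across nitrogen and time as a description, since they chose the members. The limiting minus ample difference of the CO2 differences had a median of 0.01 at midday, with 39 members above 0 and 33 below. At midnight it had a median of -0.09, with 29 members above 0 and 43 below, so the fall was deeper at limiting nitrogen in 43 members. Midday minus midnight, the median was 0.05 at ample nitrogen, with 48 members above 0, and 0.16 at limiting nitrogen, with 56 above 0. The shares of all probe sets on each side were not counted. The part of the spread between midnight arrays in these counts was not tested. Without replicate 1 of the elevated arrays at limiting nitrogen and midnight, the members' median at that condition was -0.50, which is less deep than the -0.61 at ample nitrogen and midnight.

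The nitrogen effect, limiting minus ample averaged over both CO2 levels and both times, was not part of the rule and was tested with limma over all 12772 probe sets. It used the same arrays that chose the members, so it is not fully separate from that choice. At an adjusted p under 0.05 it was lower for 1 member, AT1G33170 (1.39% of members, where 0.83% of all probe sets were called lower), and higher for none (0.579% of all). At an unadjusted p under 0.05 in limma, 9 members were lower (12.5%, where 8.35% of all probe sets were) and 0 higher (5.21% of all). Without the 30% of probe sets of lowest mean level, which include AT1G33170, 0 members were called lower, and with array weights 2 were, the second being CYTC6A. The members' median nitrogen effect was -0.10, against -0.01 over all probe sets, and 53 of the 72 lay below 0. The share of all probe sets below 0 was not counted. The members' median absolute effect was 0.148, against 0.089 over all probe sets. Their pooled within-group SD was also larger, with a median of 0.424 against 0.279, and its part in this was not tested. The members were low on replicate 1 of elevated CO2, limiting nitrogen and midnight (median difference from the rest of its group -0.94). They were high on replicate 4 of ambient CO2, ample nitrogen and midnight (0.61). Both arrays lower the limiting minus ample difference, and their part in it was not tested. At midday alone limma called 0 members higher (0.0861% of all probe sets) and 0 lower (0.141%). The unadjusted limma p was under 0.05 for 1 higher (2.81% of all) and 2 lower (4% of all), and array weights called 1 lower, AT1G33170. At midnight alone limma also called 0 higher (0.525%) and 0 lower (0.853%). There the unadjusted limma p was under 0.05 for 1 higher (5.14% of all) and for 8 lower (11.1% of members, 8.27% of all). A replicate block called 2 members lower at midnight, 249383_at and AT3G43960. Array weights, and leaving out the 2 arrays of lowest weight, each called 1 higher there, 256980_at. Leaving out 1 array called 0 to 2 members lower at midnight. Without replicate 2 of elevated CO2, limiting nitrogen and midnight these were CYTC6A and AT3G43960, and without replicate 3 of that group AT3G43960 and AT1G33170. It was CYTC6A without replicate 3 of elevated CO2, ample nitrogen and midday, 249383_at without replicate 5 of elevated CO2, ample nitrogen and midnight, and AT2G10940 without replicate 2 of ambient CO2, limiting nitrogen and midnight. The shares of all probe sets called under these alternatives are not given. A nitrogen response that differed between midday and midnight was called for 0 members in either direction (0.0705% of all probe sets higher, 0.0313% lower), with 1 in each direction at an unadjusted p under 0.05 in limma (3.51% and 2.72% of all).

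The gene called for nitrogen, AT1G33170, encodes the third methyltransferase of the members. Among elevated CO2 arrays at midday it read -1.62, -1.65, -1.81 and -1.64 at limiting nitrogen, against -1.16, -1.11 and -1.45 at ample nitrogen. Among ambient CO2 arrays at midday it read -0.98, -1.17, -0.70 and -1.62 at limiting nitrogen, against -0.31, -0.34, -0.48 and -0.35 at ample nitrogen. The nitrogen groups did not overlap in either case. Elevated CO2 arrays at midnight read -3.46, -2.67, -2.29 and -2.91 at limiting nitrogen, against -2.02, -2.57, -2.69, -2.13 and -2.67 at ample nitrogen. Ambient CO2 arrays at midnight read -2.46, -1.97, -1.85 and -2.55 at limiting nitrogen, against -1.85, -1.74, -1.43, -0.83 and -2.04 at ample nitrogen, and the midnight groups overlapped at both CO2 levels. Its group means averaged -1.96 at limiting nitrogen, against -1.40 at ample nitrogen. The nitrogen effect was -0.56 (SE 0.12, limma adjusted p = 0.00802), and it lay between -0.60 and -0.51, called each time, with any 1 array left out. The same transcript thus had a mean CO2 difference of -0.72 and was lower under limiting nitrogen. It is among the 30% of probe sets of lowest mean level, and the files give no detection call. CYTC6A had the next nitrogen effect of the named members, -0.45 (SE 0.14, limma adjusted p = 0.102).

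Time of day, midday minus midnight averaged over both CO2 levels and nitrogen supplies, was also tested over all probe sets with limma. It was called higher at midday for 36 members (50%, where 33.4% of all probe sets were) and lower for 7 (9.72%, where 31.1% were). The members' median was 0.30, against 0.02 over all probe sets. Among those called higher the log2 difference ran between 0.27 and 5.08 with a median of 1.06, and among those called lower between -1.32 and -0.40 with a median of -0.62. Every midday array lay above every midnight array for 8 members (11.1%, where 4.58% of all probe sets did) and below for 0 (3.69% of all). The control probe sets not named for Arabidopsis transcripts had a median midday minus midnight difference of 0.17 and a median absolute one of 0.44. Their part in the time effect was not tested.

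Cell surface genes and enzymes were among the members with the largest time effects. AT4G12980 ran between 1.60 and 2.89 with a median of 2.56 on the 15 midday arrays, against -2.75 to -0.25 with a median of -1.05 on the 18 midnight arrays. Its arrays did not overlap, and the effect was 3.55 (SE 0.13, limma adjusted p = 3.38e-20), or 11.7-fold higher at midday. AT4G18970, the GDSL lipase, ran between -0.79 and 1.78 with a median of 0.66 on the 15 midday arrays, against -4.01 to -1.53 with a median of -2.44 on the 18 midnight arrays. It too had no overlap, with an effect of 2.85 (SE 0.18, limma adjusted p = 8.06e-15). AT2G29300 ran between -1.28 and 0.11 with a median of -0.56 on the 15 midday arrays, against -3.81 to -1.38 with a median of -2.29 on the 18 midnight arrays. The highest midnight array stayed below the lowest midday array, and the effect was 1.81 (SE 0.18, limma adjusted p = 2.39e-10). Its neighbour AT2G29290 rose as well, by 1.33 (SE 0.12, limma adjusted p = 8.19e-11).

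Of the 8 chloroplast and organelle RNA genes, a class drawn up with these values known, 4 were called higher at midday and 0 lower, where 33.4% and 31.1% of all probe sets were. AT4G27700, the rhodanese-like protein, ran between 2.65 and 3.60 with a median of 3.37 on the 15 midday arrays, against 0.78 to 2.05 with a median of 1.59 on the 18 midnight arrays. The effect was 1.65 (SE 0.10, limma adjusted p = 1.88e-15), with no overlap. AT3G56160 ran between -0.86 and 0.07 with a median of -0.33 on the 15 midday arrays, against -2.92 to -0.95 with a median of -2.18 on the 18 midnight arrays. The times did not overlap, by 0.09, and the effect was 1.63 (SE 0.13, limma adjusted p = 4.16e-12). The others were AT5G38520 with 0.69 (SE 0.10, limma adjusted p = 5.35e-07) and AT2G32640 with 0.67 (SE 0.14, limma adjusted p = 0.000113). The member with the largest effect was the unnamed 252607_at, which ran between 2.02 and 4.46 with a median of 3.70 on the 15 midday arrays, against -2.79 to 0.53 with a median of -1.57 on the 18 midnight arrays. That is a difference of 5.08 (SE 0.29, limma adjusted p = 8.33e-16), or 33.8-fold, between groups that do not overlap.

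The named members that were lower at midday were AT3G23880, AT3G13000 and AT1G22330. The F-box gene AT3G23880 ran between -1.68 and 0.02 with a median of -0.97 on the 15 midday arrays, against -0.85 to 2.02 with a median of 0.64 on the 18 midnight arrays. The times overlapped, and the effect was -1.32 (SE 0.15, limma adjusted p = 5.84e-09). AT3G13000 ran between -2.99 and -1.14 with a median of -2.17 on the 15 midday arrays, against -3.85 to -0.74 with a median of -1.35 on the 18 midnight arrays. The midnight range included the whole midday range because of the elevated array at -3.85, and the effect was -0.69 (SE 0.18, limma adjusted p = 0.00164). AT1G22330 ran between -2.85 and -1.26 with a median of -2.25 on the 15 midday arrays, against -4.33 to -0.46 with a median of -1.80 on the 18 midnight arrays. Its effect of -0.43 (SE 0.18, limma adjusted p = 0.0367) lost its call when any of 15 single arrays was left out, with values between -0.56 and -0.37.

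**Figure D5:**
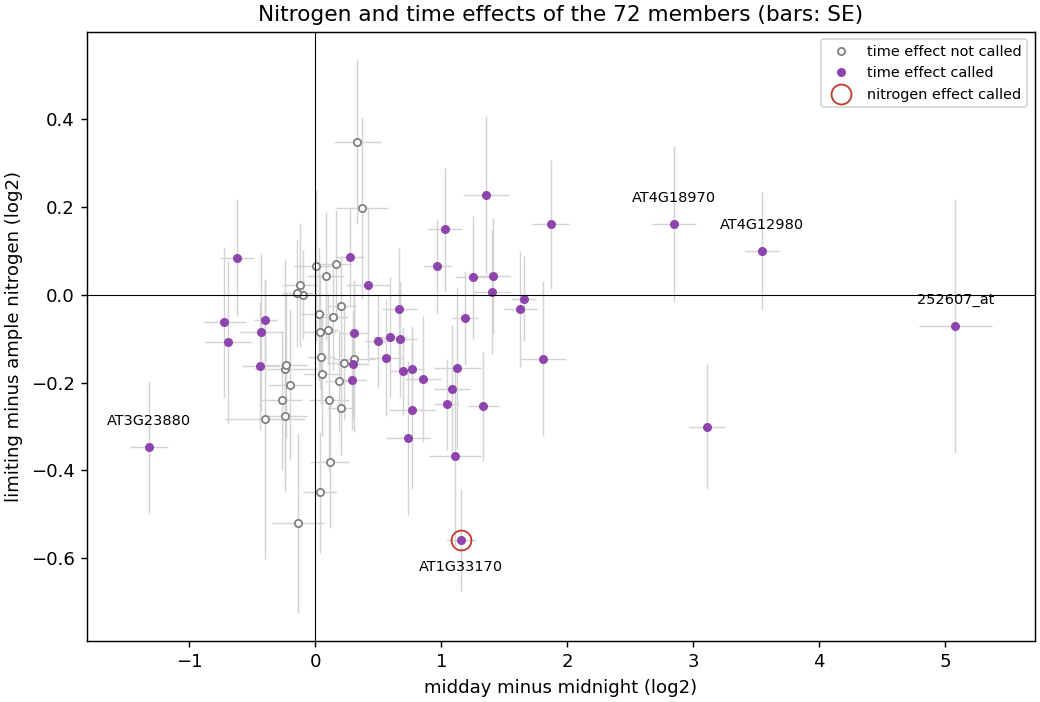
The nitrogen effect (limiting minus ample, log2, vertical axis) against the time effect (midday minus midnight, log2, horizontal axis) of each of the 72 members, with SE bars; filled points were called for time and the circled point, AT1G33170, for nitrogen. Time effects reach 5.08, while all nitrogen effects lie between -0.56 and 0.35.

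Lists of genes of leaf growth and metabolism were examined beside the members, and none of the listed genes was a member. The lists do not hold every gene of their heading. AT1G60590, of a pectin family, and AT2G10940, of a lipid-transfer family, are members that were not on them. EXPA8, of the cell wall list, met the rule, with CO2 differences of -0.53 and -0.95 at ample nitrogen and -0.59 and -0.76 at limiting nitrogen (midday and midnight), and was left out by name. Most listed genes are not named in the annotation used here, so the counts are small. Of the light reactions 7 of 37 listed genes were measured, all 7 were called higher at midday, and PSAN, a photosystem I subunit, was called lower under limiting nitrogen. Of carbon fixation and photorespiration 7 of 30 were measured, all 7 were higher at midday, where 33.4% of all probe sets were. Of chlorophyll synthesis 6 of 20 were measured, 4 were higher and 2 lower at midday. Of cell wall loosening and pectin 6 of 39 were measured, 5 higher and 1 lower at midday, and of starch and sucrose 7 of 28, 2 higher and 5 lower, with APL3 called higher under limiting nitrogen. Of microtubules 7 of 20 were measured, 1 higher and 6 lower at midday, and of chromatin and cell division 4 of 22, 2 lower. Growth hormone genes gave 2 of 44, 1 higher and 1 lower at midday, sugar-repressed genes 2 of 18, both lower, and nitrate response genes 2 of 26, 1 each way, with AT1G25550, of the family of nitrate-responsive repressors, lower under limiting nitrogen. No listed gene of arabinogalactan and lipid transfer proteins (24 listed) or of cuticle and wax (21 listed) was among the named probe sets. CO2 differences below 0 in all 4 conditions, which 25% of all probe sets had, were found for all 7 genes of carbon fixation, all 6 of chlorophyll synthesis, 5 of 7 of the light reactions, 5 of 7 of microtubules and 3 of 6 of the cell wall. They were found for 0 of 7 genes of starch and sucrose, 0 of 4 of chromatin and cell division, and 0 of 2 each of growth hormones, sugar-repressed genes and nitrate response. The lists hold genes that were to be left out by name. These are PRK, SBPASE, AT1G11860 and LrgB of carbon fixation, CHLI2 and CHLM of chlorophyll synthesis, ATSPS4F of starch and sucrose, and EXPA8. The lists were drawn up with earlier results of these data known, so nothing is read from the counts.

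The tissue was checked against cell type markers. The summed log2 level of the 3 measured mesophyll markers, LHCB4.2, RCA and PSAN, ran between 11.2 and 18.6 on the elevated CO2 arrays and between 13.3 and 19.0 on the ambient CO2 arrays, and their median mean CO2 difference was -0.16. Of the stomatal lineage FAMA was measured, between -2.43 and -1.46 in elevated CO2 and between -2.89 and -1.02 in ambient CO2. Of trichomes TRY was measured, between -3.48 and 0.12 in elevated CO2 and between -2.68 and 0.17 in ambient CO2, with a mean CO2 difference of -0.54. Markers of epidermis, phloem, xylem, dividing cells, root and flower were not among the named probe sets. The CO2 difference of TRY had the sign of the members', and its part in their result was not tested. Levels of different probe sets are not comparable, so these values do not show which cell types were present.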

How the data were processed

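RNA of 33 leaf samples was labelled with a 3' IVT kit and hybridised to Affymetrix arrays, per the labels' protocols. The deposited values are log2 expression per probe set, and the authors' table has every column median at 0. How probes were summarised, corrected for background or filtered is not stated in the labels or the file. Of 12826 probe sets, 54 are controls and were left out of the tests. The platform annotation, updated to TAIR10.1 names, gives 1 gene for 6898 probe sets and several for 272, and 5602 are unnamed here.

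The labels gave the 8 groups. A limma model (version 3.58.1, R 4.3.3) with 1 mean per group was fitted over all arrays and tested on simulated data; a call is a Benjamini-Hochberg adjusted p under 0.05 over 12772 probe sets, and every adjusted p is limma's. Alternatives were quantile normalization, leaving out the 30% dimmest, a replicate block, a trended robust variance, array weights, and each array left out; leaving out the 2 arrays of lowest weight and centring on 37 control probe sets were added after seeing the data. Members shown in detail are the 8 named ones with the largest mean fall, and the named ones apart in at least 3 conditions or called for nitrogen. Added to these are up to 5 named ones with the largest called time effects each way, and the 3 unnamed ones with the largest mean fall. Other unnamed members, some with larger time effects or apart in 3 conditions, were not picked. Members, classes and gene lists were chosen with earlier results of these data known.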

Additional observations from a re-analysis of the deposited data

Results flagged for a closer look

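Single arrays far from the rest of their group were looked for in the 22 members shown on every array or by range, in the members' median on each array and in the ratio of 3' to 5' controls. Over 168 groups of 4 or 5 arrays, 12 had a highest or lowest array whose gap to its nearest neighbour passed the limit of Dixon's test, which chance alone does in about 1 of 20 groups. AT3G13000 was high on replicate 4 of elevated CO2, limiting nitrogen and midday, at -1.88, where the others were between -2.89 and -2.73. On replicate 3 of ambient CO2, limiting nitrogen and midday, AT2G10940 was high at 3.96 (others 2.65 to 2.73) and AT5G01015 was high at 1.08 (others 0.73 to 0.78). AT4G12980 was low on replicate 3 of elevated CO2, limiting nitrogen and midday, at 1.60 (others 2.24 to 2.33). AT4G38690 was low on replicate 3 of elevated CO2, ample nitrogen and midnight, at -1.41 (others -0.52 to -0.19). AT1G22330 was low on replicate 1 of elevated CO2, limiting nitrogen and midnight, at -4.33 (others -2.23 to -2.04), and on replicate 4 of ambient CO2, ample nitrogen and midday, at -2.67 (others -2.07 to -2.02). In that last group 253971_at was low on replicate 3, at 3.46 (others 4.36 to 4.41), and 252607_at on replicate 1, at 3.77 (others 4.28 to 4.37).

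The mean log2 ratio of 3' to 5' control probes was 4.41 on replicate 4 of ambient CO2, ample nitrogen and midnight, where the others of the group were between 1.71 and 2.35. It was 1.72 on replicate 1 of elevated CO2, limiting nitrogen and midnight (others 1.96 to 2.00) and 1.89 on replicate 1 of ambient CO2, limiting nitrogen and midday (others 1.80 to 1.81).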

How the results depend on the processing

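The rule took in 240 probe sets at a limit of -0.3 and 27 at -0.5, 45 with group medians (30 of them members), 69 after quantile normalization (63 members) and 48 without the 30% dimmest. It took in 42 without the 2 arrays of lowest weight and 16 with centring on the control probe sets, and between 38 and 108 with 1 array left out. Leaving out replicate 3 of elevated CO2, limiting nitrogen and midday gave 46, and leaving out replicate 1 of elevated CO2, limiting nitrogen and midnight gave 51. For the mean nitrogen effect 1 member was called lower, 0 without the 30% dimmest, a filter that removes AT1G33170, 2 with array weights, and 1 to 2 with 1 array left out, where the second was CYTC6A. At midday, array weights called 1 member lower. At midnight, array weights, and leaving out the 2 arrays of lowest weight, each called 1 higher, and leaving out 1 array called 0 to 2 lower. Same-numbered arrays did not correlate steadily, and so few arrays in a group cannot settle whether replicate numbers pair the arrays. Same-numbered limiting and ample arrays correlated between -0.319 and 0.186, with 3 of 15 pairs over 0.1. Elevated and ambient ones correlated between -0.283 and 0.305, with 7 of 16 over 0.1 (all 4 at limiting nitrogen and midday). Midday and midnight ones correlated between -0.457 and 0.191, with 1 of 15 over 0.1. A replicate block called 2 members lower for nitrogen at midnight, 249383_at and AT3G43960, and left every other count of calls within 1.5 times. Without the 30% dimmest probe sets, which hold 24 members, the time effect was called higher for 23 and lower for 4 members. With 1 array left out, it was called for 31 to 40 and 6 to 7. The shares of all probe sets called under these alternatives are not given, so no count here is read against them. No called result reversed under the alternatives run. The causes were not tested, apart from the filters' own removal of members.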
